A study of Gallus gallus with 10 samples.

Results

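Explants of anterior placode progenitors (aPPs) and posterior placode progenitors (pPPs) of the chick embryo were compared after each had been held in isolation for 5 hr. Of the 10 arrays of the series, the 4 of cultured explants enter this comparison, namely sets 1 and 2 of cultured aPPs and sets 1 and 2 of cultured pPPs, chosen by their sample labels. All explants were placed in collagen, and the embryos were at Hamburger-Hamilton (HH) stages 5 to 7. Strain and sex are not given in the sources used here, nor how many explants went into an array. The other 6 arrays are of uncultured tissue, 3 of aPPs and 3 of pPPs at HH6, and serve as the regional comparison before culture. No embryo tissue of matching age was analysed here, so that culture and added age cannot be told apart, and both cultured groups share them. On each array RNA was amplified, labelled and hybridized to an Affymetrix chicken array, on which a probe set stands for a transcript.

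Cranial placodes are thickenings of head ectoderm, and their precursors at first form a horseshoe-shaped domain around the rostral neural plate. The aPPs form lens and olfactory epithelium, while the pPPs form the inner ear and epibranchial ganglia. The pPPs border on cells that will become neural crest and dorsal neural tube, in which Zic, Pax7 and Tfap2b genes act. Posterior character in the head is linked to retinoic acid, a derivative of vitamin A that enzymes of the Cyp26 family degrade. In isolation the early progenitors of either region can turn on a lens program, with Pax6 as a key transcription factor, which is why cultured pPPs were arrayed in the search for regulators of Pax6.

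Before the results, the label of 1 array needs a remark. In a second deposited table, 2 arrays carry the name of cultured aPP set 2 and none is named cultured pPP set 2, and the label of each sample was followed here. Over all tested probe sets the array labelled cultured pPP set 2 correlated with cultured aPP sets 1 and 2 at 0.984 and 0.985 and with cultured pPP set 1 at 0.979, whereas the cultured aPP arrays correlated with each other at 0.990. The label was therefore checked with the 254 probe sets that were higher and the 154 that were lower in aPPs than in pPPs on the uncultured arrays. Those arrays do not enter the means of the cultured groups, but they share in the normalization, the detection filter and the spread of the tests. Relative to the mean of the 4 cultured arrays, probe sets lower in uncultured aPPs stood at 0.32 (log2) on the array labelled cultured pPP set 2 and at 0.22 on cultured pPP set 1, but at -0.30 and -0.24 on cultured aPP sets 1 and 2. Probe sets higher in uncultured aPPs stood at -0.20 and -0.14 on these cultured pPP arrays and at 0.15 and 0.19 on the cultured aPP arrays. By both measures the array in question lay on the side of its label.

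**Figure D1:**
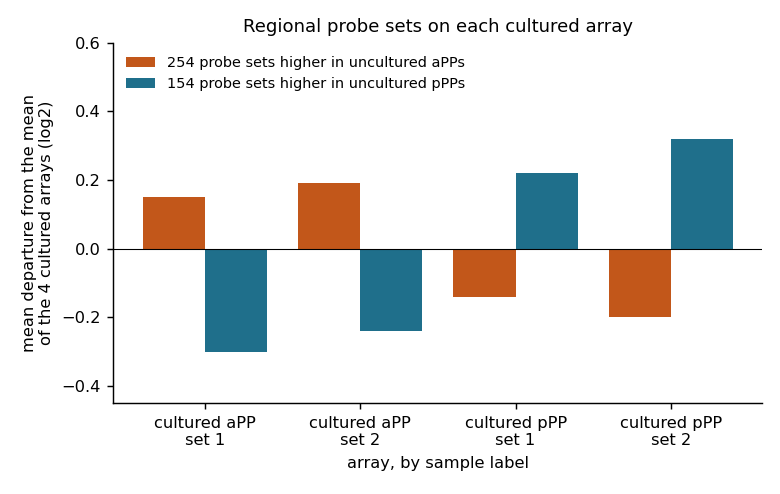
Mean departure (log2) of regional probe sets on each of the 4 cultured arrays from the mean of these arrays, for probe sets higher in uncultured aPPs (orange) and higher in uncultured pPPs (blue). Both cultured pPP arrays have the posterior probe sets up, at 0.22 and 0.32, and the anterior ones down, at -0.14 and -0.20.

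Signals of this study are in arbitrary units and were quantile normalized over all 10 arrays before 16 was added and log2 taken, which makes fold changes of dim genes come out below their signal ratios. Where the dimmer cultured group had no present call, its estimated fold with the offset is given as at least that value. Such a bound refers to the undetected signal only and does not allow for the error of the estimate. Probe sets were tested with limma, and a difference counted as called at an adjusted p under 0.05. Of 21591 tested probe sets, 22 were higher in cultured aPPs than in cultured pPPs (0.102 percent) and 28 were lower (0.13 percent). At an unadjusted p under 0.05 there were 1965 (9.1 percent), a rough guide for such counts in gene lists. Those lists use the brightest probe set of each gene, for which the matching share was not computed. The 50 stand for 15 and 19 named genes, and 12 of the 50 carry no gene symbol. With a single probe set per gene, 14 of 9728 genes were higher (0.144 percent) and 19 were lower (0.195 percent). Of the 34 genes, 20 have further tested probe sets, 33 in number, of which 31 had the same direction and 4 were called as well. An exact permutation test of 2 arrays against 2 cannot go below p = 0.333, so that the tests draw on the spread of all 10 arrays. Nothing in the labels says that the sets came from separate dissections, and the p-values measure the spread between these samples. The typical probe set differed little, with a median absolute log2 difference of 0.18 and a median standard error of 0.23. With so few arrays, groups without overlap are common. Of all tested probe sets, 20.6 percent had both cultured aPP arrays above both cultured pPP arrays, and 22.7 percent had them below.

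The count rests on few arrays. It fell to 10 without cultured aPP set 1, 12 without cultured aPP set 2 and 8 without cultured pPP set 1. With the array labelled cultured pPP set 2 left out it rose to 137, with 105 higher and 32 lower, and 39 of the 50 were among them. All 50 kept their direction without each cultured array in turn, and 7 were called in all 4 of these fits. The 7 were all lower in cultured aPPs, and 5 of them are CYP26A1, CYP26C1, ZIC2, TFAP2B and DRAXIN, while the other 2 have no gene symbol. Of the remaining calls 11, including those of SIX3, GBX2, KLF2 and TPM1, were lost in each of the 4 fits. Without normalization none was called (lowest adjusted p = 0.0616 from limma, with 178 probe sets at an unadjusted p under 0.05), although all 50 again had the same direction. For all 50 the cultured groups did not overlap, so leaving out an array could not turn a direction.

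**Figure D2:**
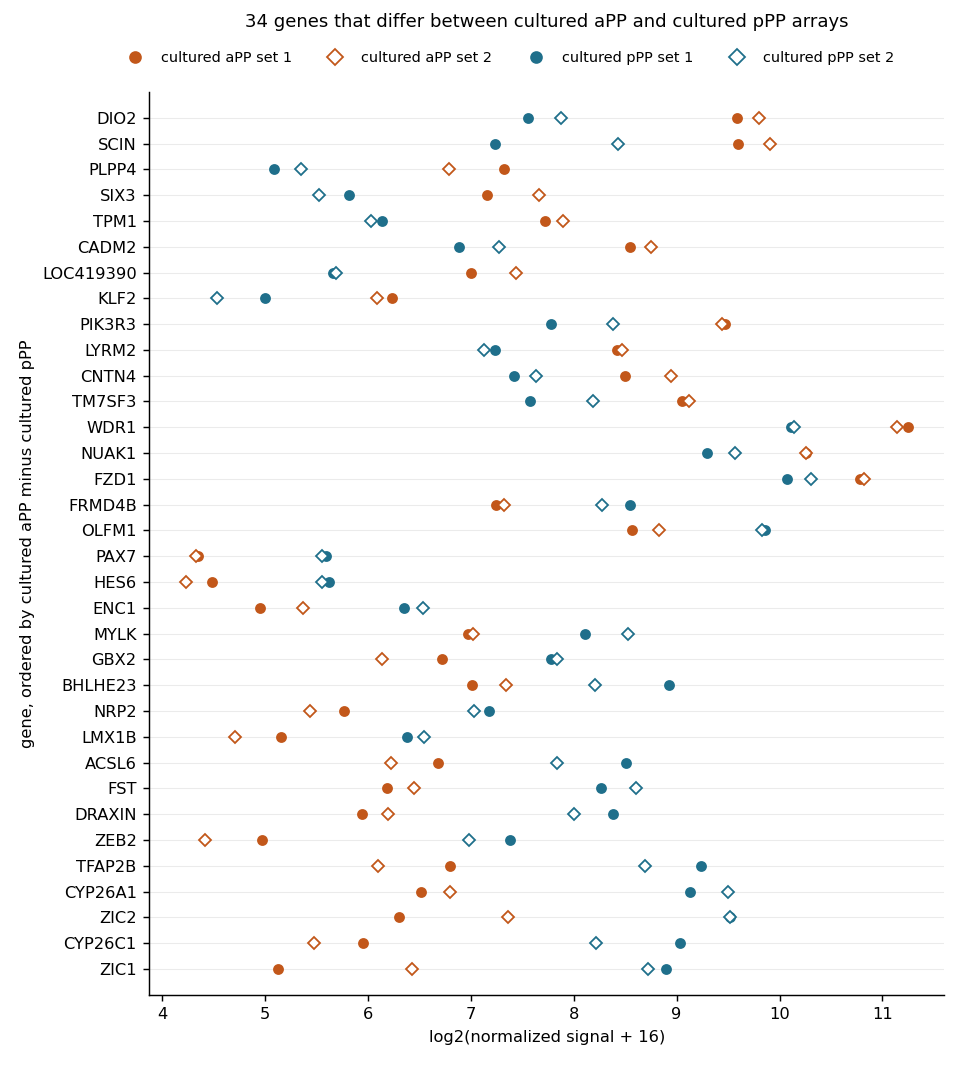
Value of the 34 named genes with a called difference on each cultured array, as log2(normalized signal + 16). Orange symbols are cultured aPPs, blue symbols cultured pPPs, filled circles set 1 and open diamonds set 2, and for none of these genes do the 2 groups overlap. Of all tested probe sets, 20.6 percent were without overlap with cultured aPPs higher, and 22.7 percent with cultured aPPs lower.

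Among the clearest differences were those of 2 genes for breakdown of retinoic acid. CYP26A1 and CYP26C1 encode enzymes that oxidize and so inactivate retinoic acid, and both were far lower in cultured aPPs. CYP26A1 had signals of 75.2 and 95.5 on the cultured aPP arrays and of 545 and 706 on the cultured pPP arrays of sets 1 and 2. With the offset it was 6.31-fold lower in cultured aPPs (log2 difference -2.66, standard error (SE) 0.23, adjusted p = 9.04e-05 from limma), the lowest p of all probe sets. CYP26C1 had 46.0 and 28.4 against 507 and 281, a log2 difference of -2.91 (SE 0.32, adjusted p = 0.00055). Its other tested probe set gave -2.20 (adjusted p = 0.00788). On neither gene did any cultured aPP array reach a cultured pPP array. Before culture the same genes had differed less, with means of 588 in aPPs and 1189 in pPPs for CYP26A1 (log2 difference -0.97, adjusted p = 0.0113) and of 236 and 453 for CYP26C1 (-0.89, adjusted p = 0.123). The test of whether the cultured difference exceeded the uncultured one did not pass for either gene (adjusted p = 0.0821 and 0.124 from limma).

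No other gene of the same pathway passed. Of 12 tested genes of retinoic acid metabolism, its receptors and carriers, and HOX genes, the CYP26 genes were lower and none was higher, with a median log2 difference of -0.07 beside -0.03 over all genes and no further gene at an unadjusted p under 0.05. RDH10, which makes the precursor of retinoic acid, had 942 and 697 in cultured aPPs and 517 and 597 in cultured pPPs (log2 difference 0.53, adjusted p = 0.59). ALDH1A2, the main enzyme of retinoic acid synthesis in the early embryo, was dim, at 36.0 and 16.5 against 17.8 and 29.3, and its groups overlapped. RARB, a retinoic acid receptor that is itself a target of retinoic acid, had 282 and 251 against 314 and 252 (log2 difference -0.08, adjusted p = 0.948).

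Of 11 tested genes of the neural plate border, ZIC1, ZIC2 and PAX7 were lower in cultured aPPs and none was higher. The list had 6 positive and 5 negative differences, a median of 0.02 and 4 genes at an unadjusted p under 0.05. ZIC1, a zinc-finger factor of the border and dorsal neural tube, had 19.0 and 70.3 on the cultured aPP arrays and 461 and 407 on the cultured pPP arrays. This was the largest called difference, 8.17-fold with the offset (log2 difference -3.03, SE 0.43, adjusted p = 0.00664), and another probe set of ZIC1, not called present on cultured aPP set 1, was at least 6.89-fold lower (adjusted p = 0.00788). Its relative ZIC2 had 63.1 and 148 against 716 and 715, a log2 difference of -2.68 (SE 0.32, adjusted p = 0.000981). A second, dim probe set of ZIC2, with means of 8.25 and 7.09, gave 0.07 (adjusted p = 0.953). Both ZIC genes stood near the level of uncultured aPPs, 39.8 and 128, on the cultured aPP arrays and near that of uncultured pPPs, 384 and 956, on the cultured pPP arrays.

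PAX7, which marks border cells and later neural crest, had 4.41 and 4.09 in cultured aPPs and 32.1 and 30.8 in cultured pPPs. It was not called present on cultured aPP set 1, the only cultured aPP array with a usable detection call, and is given as a bound, at least 2.34-fold lower (adjusted p = 0.00741 from limma). The other border genes did not pass. DLX5, a border and preplacodal homeobox gene, had 2511 and 2567 against 2358 and 2157 (log2 difference 0.17, SE 0.15, adjusted p = 0.757). TFAP2A, an AP-2 factor of border and surface ectoderm, had 634 and 637 against 649.8 and 602. TFAP2C, of the same family, had 315 and 302 against 205 and 156, a log2 difference of 0.74 that did not pass (adjusted p = 0.431).

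**Figure D3:**
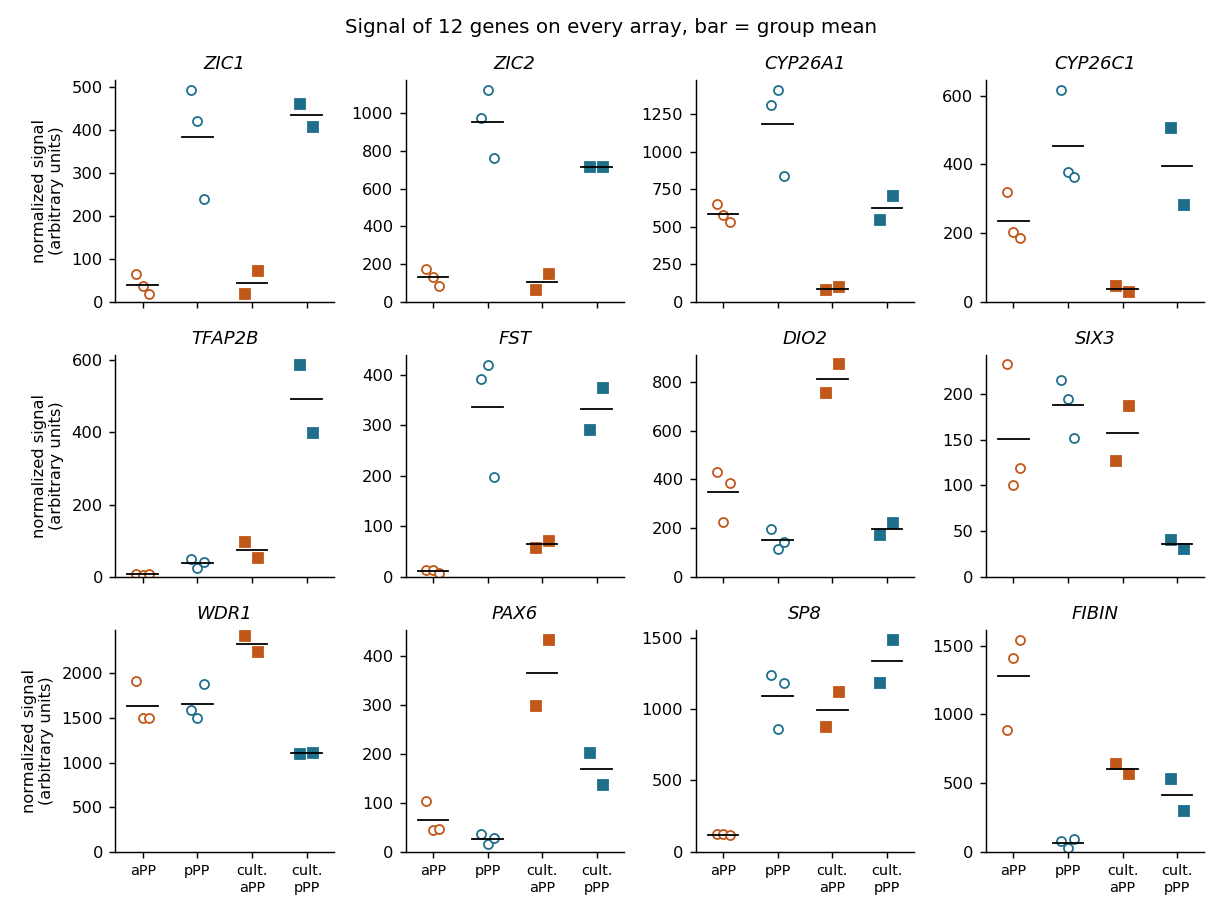
Normalized signal in arbitrary units of 12 genes on all 10 arrays, with the mean of each group as a bar. Open circles are uncultured and filled squares cultured arrays, and ZIC1, for example, has means of 39.8 in aPPs, 384 in pPPs, 44.6 in cultured aPPs and 434 in cultured pPPs.

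TFAP2B, the AP-2 factor that is also an early neural crest gene, differed far more than its relatives. It had 95.2 and 52.4 on the cultured aPP arrays and 586 and 397 on the cultured pPP arrays (log2 difference -2.52, SE 0.29, adjusted p = 0.000687). In uncultured tissue it was dim in both regions, with means of 6.83 in aPPs, where sets 2 and 3 had no present call, and 38.9 in pPPs (adjusted p = 0.00947). DRAXIN, a secreted guidance protein and Wnt antagonist of neural crest and dorsal neural tube, had 45.6 and 57.0 against 318 and 241, a log2 difference of -2.13 (SE 0.22, adjusted p = 0.000281). Of 17 tested neural crest genes, TFAP2B, DRAXIN and PAX7 were lower and none was higher, with a median of -0.26, 4 positive and 13 negative differences and 5 genes at an unadjusted p under 0.05. TFAP2B and DRAXIN were called also without each cultured array in turn, and PAX7 only when the array labelled cultured pPP set 2 was left out.

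No other crest gene passed. SNAI2, a repressor active when crest cells leave the epithelium, had 88.0 and 55.5 against 200.5 and 94.8 (log2 difference -0.84, adjusted p = 0.487). SNAI1 had the highest difference of the list, at 578 and 503 against 290.3 and 292 (log2 difference 0.85, adjusted p = 0.443). FOXD3 had 14.9 and 18.8 against 40.7 and 23.4 (adjusted p = 0.657), and SOX10 lay between 13.4 and 19.1 on all 4 cultured arrays. The summed signal of the 17 crest genes was 4689 and 4597 in cultured aPPs and 5456 and 5501 in cultured pPPs. Most of these sums came from the bright genes RHOB, LMO4 and MYCN. Their means were 1290, 999 and 1150 in cultured aPPs and 1450, 1190 and 1080 in cultured pPPs, and none of them was called. The arrays measure whole explants, in which fewer cells of a kind and less RNA per cell cannot be told apart.

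ZEB2, a repressor of the neural plate and early crest, had 15.4 and 5.39 in cultured aPPs and 150.4 and 110.2 in cultured pPPs, a log2 difference of -2.48 (SE 0.43, adjusted p = 0.024). Its 2 other probe sets were dim, with means of 3.49 and 2.88 and of 1.27 and 7.58, and gave 0.03 and -0.45 (adjusted p = 0.976 and 0.555). Of 13 tested neural plate genes ZEB2 was the only 1 called. The list had 8 positive and 5 negative differences, a median of 0.08 and 7 genes at an unadjusted p under 0.05. SOX3, a neural and early placodal gene, overlapped between the groups, at 139 and 250.2 against 152 and 206. LIN28A, an RNA-binding protein of immature cells, had 316 and 269 against 146 and 74.8 (log2 difference 1.34, adjusted p = 0.484).

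Of 7 tested genes of the otic, epibranchial and posterior placode list, GBX2 and LMX1B were lower in cultured aPPs and none was higher. GBX2, a marker of posterior placodal ectoderm and the anterior hindbrain, had 89.2 and 54.2 against 203 and 212 (log2 difference -1.38, SE 0.25, adjusted p = 0.0298). LMX1B, a LIM homeobox gene, had 19.6 and 10.1 against 67.2 and 77.4 (log2 difference -1.53, SE 0.22, adjusted p = 0.00739). The list median was -0.52, and 3 of the 7 had an unadjusted p under 0.05. IRX2, an Iroquois gene, had 119.8 and 112 against 157 and 215, without overlap, but did not pass (log2 difference -0.60, adjusted p = 0.507). PAX2, an otic marker, had no tested probe set. The call for GBX2 was lost without each cultured array in turn, with a highest adjusted p of 0.601 and a log2 difference that stayed between -1.09 and -1.67.

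Among genes of signaling pathways single members differed. FST encodes follistatin, a secreted protein that binds activin and BMPs. It had 56.7 and 71.3 in cultured aPPs and 291 and 374 in cultured pPPs (log2 difference -2.12, SE 0.30, adjusted p = 0.00664), and a dimmer probe set, again not called present on cultured aPP set 1, was at least 2.33-fold lower (adjusted p = 0.0348). It was the only 1 of 18 BMP and activin components called, with a list median of 0.14 and 6 genes at an unadjusted p under 0.05. BMP7, a ligand of the family, had 590.4 and 627 against 308 and 231, on the other side of FST, but did not pass (log2 difference 1.14, adjusted p = 0.261). BMP5 had 13.8 and 4.38 against 32.0 and 33.7 (log2 difference -0.99, adjusted p = 0.297). None of 14 tested BMP targets was called by limma in culture, with 1 at an unadjusted p under 0.05 and a median of 0.11. In uncultured aPPs 7 had been called higher, with a median of 0.71. Of all tested probe sets, 1.18 percent were called higher before culture and 0.102 percent in it, so the counts are not on a par. A change of these targets as a group was not tested. BAMBI, a decoy receptor induced by BMP, had 846 and 951 against 738 and 662.

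HES6, a bHLH protein that opposes the Notch effector HES1, was dim, at 6.31 and 2.72 against 33.2 and 31.1, with no present call on cultured aPP set 1, and was at least 2.36-fold lower (adjusted p = 0.0117 from limma). HES6 had only 2 present calls, the fewest that allow a test, and cultured pPP set 1 gave one of them. Without that call from the group in which it was higher, HES6 would not have been tested. It was the only 1 of 13 Notch components called, and 3 had an unadjusted p under 0.05. FZD1, a Wnt receptor, was higher in cultured aPPs, at 1749.8 and 1787 against 1061 and 1249.6, a difference of only 0.61 (SE 0.12, adjusted p = 0.0375). This call was lost when arrays were scaled to their trimmed means instead of quantile normalized. A further, dimmer probe set of FZD1 gave 0.12 (limma adjusted p = 0.916). No other of 30 tested Wnt components was called, though SFRP1, a secreted Wnt inhibitor, came near (log2 difference 0.64, adjusted p = 0.0936), and 5 of the 30 had an unadjusted p under 0.05. Of 12 tested targets of FGF none was called by limma, and 5 had an unadjusted p under 0.05. With arrays scaled to their trimmed means, 1 of the 12 was called lower. DUSP5, a phosphatase induced by ERK, had 63.2 and 56.9 against 181 and 169, and ETV5, an ETS factor, 251 and 239.6 against 498 and 372, with log2 differences of -1.33 and -0.77 (limma adjusted p = 0.073 and 0.109). NRP2, a coreceptor for semaphorins and VEGF, was the only 1 of 32 guidance genes called, with 38.4 and 27.3 against 129 and 115 (log2 difference -1.51, adjusted p = 0.0145). A further probe set of NRP2 gave -0.19 (adjusted p = 0.813), and 7 of the 32 genes had an unadjusted p under 0.05.

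The remaining genes lower in cultured aPPs are of mixed function. ACSL6, which activates long-chain fatty acids, had 86.3 and 58.5 against 349 and 213 (log2 difference -1.73, adjusted p = 0.0172), and BHLHE23, a bHLH transcription factor, 113 and 146 against 469 and 279.5 (log2 difference -1.39, adjusted p = 0.0475). MYLK, myosin light chain kinase, ENC1, an actin-binding protein of the nervous system, OLFM1, a secreted glycoprotein linked in chick to neural crest production, and FRMD4B, a FERM-domain protein, had log2 differences of -1.33, -1.29, -1.15 and -1.13 (adjusted p = 0.0459, 0.0346, 0.00863 and 0.0369). OLFM1 was the brightest of these, with 363 and 438 against 913 and 896. Further tested probe sets of these genes were lower too but not called. They gave -0.49 and -0.38 for ACSL6, -0.66 for BHLHE23, -0.02 and -0.61 for MYLK and -0.22 for ENC1. Those of OLFM1 and FRMD4B gave -1.10 and -1.06.

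Genes higher in cultured aPPs were led by DIO2, the deiodinase that converts thyroid hormone to its active form. It had 754 and 875 on the cultured aPP arrays and 172 and 219 on the cultured pPP arrays, 3.94-fold higher with the offset (log2 difference 1.98, SE 0.28, adjusted p = 0.00664). Before culture its means were 347 in aPPs and 151 in pPPs (log2 difference 1.10, adjusted p = 0.0192). SCIN, an actin-severing protein, had 759.7 and 945 against 135 and 329 (log2 difference 1.92, adjusted p = 0.0208). WDR1, which speeds the disassembly of actin filaments, was bright, at 2422 and 2244 against 1093 and 1112, with a log2 difference of 1.07 (SE 0.14, adjusted p = 0.00224), and its other probe set gave 1.20 (adjusted p = 0.0293). In uncultured tissue WDR1 had means of 1635 in aPPs and 1657 in pPPs (log2 difference -0.02, adjusted p = 0.988). The change between the 2 differences, 1.09, did not pass a direct test (adjusted p = 0.0752 from limma). TPM1, an actin-binding tropomyosin, passed with 1 of its 8 tested probe sets (195 and 222 against 54.2 and 49.3, log2 difference 1.73, adjusted p = 0.024), while the others lay between 0.03 and 1.32. By its name, that probe set holds probes that can bind other transcripts too.

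PLPP4, a phospholipid phosphatase, had 144 and 94.2 against 17.9 and 24.8 (log2 difference 1.84, adjusted p = 0.00832), and a further probe set gave 1.56 (adjusted p = 0.0884). CADM2 and CNTN4, which encode cell adhesion proteins of the nervous system, had log2 differences of 1.57 and 1.20 (limma adjusted p = 0.034 and 0.0201). Further probe sets of CNTN4 gave 0.17, 0.14 and 0.40, none of them called. PIK3R3, a regulatory subunit of PI3-kinase, had 693 and 681 against 203 and 318 (log2 difference 1.38, adjusted p = 0.0151), and before culture 265 and 289.7 as group means (-0.12, adjusted p = 0.944). Further probe sets of PIK3R3 gave 0.81, 0.11 and 0.90 in culture, none of them called. KLF2, a zinc-finger factor that responds early to stimuli, had 59.1 and 52.0 against 15.9 and 7.14 (log2 difference 1.40, adjusted p = 0.0265). It was the only 1 of 8 tested immediate early genes called, and 7 of the 8 had positive differences, with a median of 0.45 and 2 at an unadjusted p under 0.05. NUAK1, a kinase related to AMPK, had the difference of 0.83 in culture and 0.90 before it (adjusted p = 0.024 and 0.000573). Its other tested probe set, with means of 173 and 169 in culture, gave 0.06 (limma adjusted p = 0.964). LOC419390, LYRM2 and TM7SF3 were higher too, by log2 differences of 1.54, 1.26 and 1.20 (adjusted p = 0.00741, 0.044 and 0.0356). A further probe set of LYRM2 gave 0.20 (limma adjusted p = 0.822).

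Of the anterior homeobox genes SIX3 passed. SIX3, which specifies forebrain, eye and anterior placodes, had 127 and 187 on the cultured aPP arrays and 40.5 and 30.1 on the cultured pPP arrays (log2 difference 1.74, SE 0.32, adjusted p = 0.0313). The uncultured arrays did not show this order, with aPPs at a mean of 151 ± 71.4 (SD, n = 3) and pPPs at 187 ± 32.6 (SD, n = 3). The change of the SIX3 difference, 2.09, did not pass a direct test (adjusted p = 0.107 from limma). Its call in culture was lost when any cultured array was left out, with log2 differences between 1.49 and 2.00. PAX6 had 298 and 432 against 201 and 137, without overlap, and a log2 difference of 1.04 that did not pass (SE 0.33, adjusted p = 0.368). OTX2 and HESX1, further anterior homeobox genes, had log2 differences of 0.43 and 0.67 (limma adjusted p = 0.506 and 0.368), and NKX2-1, a homeobox gene of ventral forebrain and foregut, 1.10 (adjusted p = 0.517). Of 9 tested anterior ectoderm and forebrain genes SIX3 alone was higher and none lower. In that list 8 of 9 differences were positive, with a median of 0.43 and 5 at an unadjusted p under 0.05, but these genes cannot be counted as independent observations.

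Of 12 tested genes of the lens program none was called by limma, with 2 at an unadjusted p under 0.05 and a median of -0.21. PROX1, a homeobox gene of early lens, had 108 and 151 against 53.7 and 59.9 (log2 difference 0.99, adjusted p = 0.192). The preplacodal gene EYA2, a coactivator of homeobox proteins, had 309 and 373 against 247 and 211 (log2 difference 0.54, SE 0.33, adjusted p = 0.648). None of the 5 tested EYA and DACH genes was called by limma or had an unadjusted p under 0.05.

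None of 8 tested genes of neuropeptides and their receptors was called by limma, and 3 had an unadjusted p under 0.05. When arrays were scaled to their trimmed means instead of quantile normalized, 1 of the 8 was called higher. PNOC, the gene of the nociceptin propeptide, had 588 and 713 in cultured aPPs and 396 and 407 in cultured pPPs (log2 difference 0.67, SE 0.30, adjusted p = 0.524), and its further probe set 1.57 (adjusted p = 0.198). SST1, which encodes the somatostatin propeptide and is made by mesendoderm, had 139.9 and 225 against 44.4 and 47.0 (log2 difference 1.65, SE 0.35, adjusted p = 0.079), and a further probe set 1.81 (adjusted p = 0.0524). The receptor genes SSTR5 and OPRL1 had log2 differences of 0.57 and 0.19 (limma adjusted p = 0.468 and 0.838). For PNOC, SST1 and SSTR5 each cultured aPP array was above each cultured pPP array, as for 20.6 percent of all tested probe sets. OPRL1 overlapped, at 69.9 and 86.5 against 72.4 and 60.5.

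Most genes that set the regions apart before culture had a difference of the same sign in culture, which was smaller in the median. Of 21591 probe sets, 254 were higher (1.18 percent) and 154 lower (0.713 percent) in uncultured aPPs than in pPPs, or 444 and 256 when the set number was taken as a replicate block. The arrays of this comparison and the cultured arrays do not overlap. Both comparisons come from a single fit with a shared spread for each probe set, so their calls are not independent. A probe set with little spread is more easily called in both. Of the 254, 205 (80.7 percent) were also higher in cultured aPPs, where 48.8 percent of all tested probe sets were, and 5 (1.97 percent) were called, among them DIO2, CADM2 and NUAK1, beside the 0.102 percent of all. Their median log2 difference was 1.15 before culture and 0.30 after it. Of the 154, 132 (85.7 percent) were lower and 19 (12.3 percent, for 15 genes) were called lower, beside 0.13 percent of all, with medians of -1.0 and -0.37. None was called in the opposite direction. On their brightest probe set, single genes had about as large a difference in culture as before it, among them ZIC1 (-3.03 and -2.88), ZIC2 (-2.68 and -2.78) and NUAK1 (0.83 and 0.90). The 5 became 1, 0, 0 and 9, and the 19 became 6, 7, 5 and 16, when cultured aPP set 1, cultured aPP set 2, cultured pPP set 1 and the array labelled cultured pPP set 2 were omitted in that order. The probe sets were picked by their difference on the uncultured arrays, so that the fall of the medians is a description and not a test of culture.

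Seen from the cultured side, 19 of the 28 lower and 5 of the 22 higher probe sets had been called the same way before culture. Of all tested probe sets, 0.713 percent were called lower and 1.18 percent higher before culture. In the median the 28 had -1.63 in culture and -1.02 before it, and the 22 had 1.41 and 0.28. These probe sets were picked by their difference in culture, so their larger medians there are a description and not a test. Over all tested probe sets the 2 differences had a correlation of 0.290, as a description across genes of the same arrays.

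**Figure D4:**
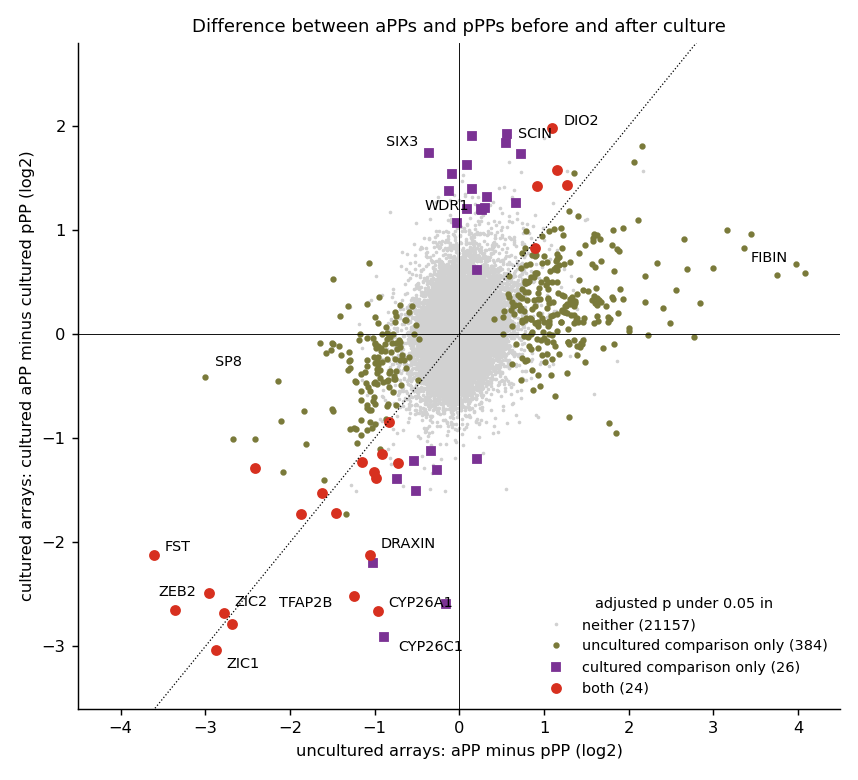
Log2 difference between aPPs and pPPs on the uncultured arrays (x axis) and on the cultured arrays (y axis) for 21591 probe sets, with equal differences on the dotted line. Red circles passed in both comparisons (24), purple squares in the cultured one only (26) and olive points in the uncultured one only (384), most of which lie nearer to 0 on the y axis than on the x axis.

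Several of the most regional genes before culture had small estimated differences afterwards. UPK1B, a uroplakin of surface epithelia, had means of 733 in uncultured aPPs and 104 in pPPs, but 517 and 586 on cultured aPP and 732 and 429.5 on cultured pPP arrays (log2 difference -0.03, adjusted p = 0.992). EPAS1, a hypoxia-inducible factor, had 1195 and 215 before culture and 436 and 544 against 373 and 541 in it (log2 difference 0.11, adjusted p = 0.948). PADI1, which converts arginine to citrulline in proteins, had 199 and 24.8 before culture and then 455 and 601 against 519 and 369. For all 3 genes the cultured groups overlapped. Standard errors of their differences in culture were 0.46, 0.36 and 0.37 in that order, so equality is not shown. CSRP2 and SST1, also among the most regional before culture, still had log2 differences of 1.10 and 1.65 in culture, neither of them called. The keratin gene KRT7 had 1292 and 1249 against 1149 and 859 (log2 difference 0.35 in culture and 1.63 before it). None of 14 tested genes of nonneural ectoderm was called in culture by limma, with 2 at an unadjusted p under 0.05 and a median of 0.13. In uncultured aPPs 5 had been called higher, and the median had been 0.61. Of all tested probe sets, 1.18 percent were called higher before culture and 0.102 percent in it, so these counts are not on a par. Differences of UPK1B, EPAS1 and PADI1 between culture and uncultured tissue did not pass a direct test (adjusted p = 0.142, 0.107 and 0.177 from limma).

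A direct test of the cultured against the uncultured difference, which uses the uncultured arrays a second time, called 3 probe sets (0.0139 percent), with 1335 at an unadjusted p under 0.05. With the set number as a block within the cultured and within the uncultured arrays 46 were called, and fewer with a single block over all arrays. SP8, a zinc-finger factor of the anterior neural ridge and placodes, had 871 and 1121 on cultured aPP and 1179 and 1486 on cultured pPP arrays, against means of 120.0 and 1093 in uncultured aPPs and pPPs. Its log2 difference was -0.42 in culture (adjusted p = 0.549) and -3.01 before it, a change of 2.59 (adjusted p = 0.000514 from limma). FIBIN, a secreted protein, had 640.2 and 566 against 528 and 294 in culture, with 1278 and 64.8 before it. Its difference went from 4.08 to 0.59, a change of -3.49 (adjusted p = 0.0195). The third, Gga.16364.1.S1_at, has no gene symbol, and had 61.6 and 91.5 against 617 and 466 in culture, with means of 66.9 and 77.3 before it (change of -2.43, adjusted p = 0.0195). SP8 passed without each of the 10 arrays in turn (highest adjusted p = 0.015), and FIBIN and the unnamed probe set did not pass without aPP set 3, either cultured aPP array or cultured pPP set 1, nor FIBIN without aPP set 2. The count of 3 became 36 without aPP set 1, 7 without pPP set 1, 54 without the array labelled cultured pPP set 2 and 1 without aPP set 3 or any other cultured array.

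**Figure D5:**
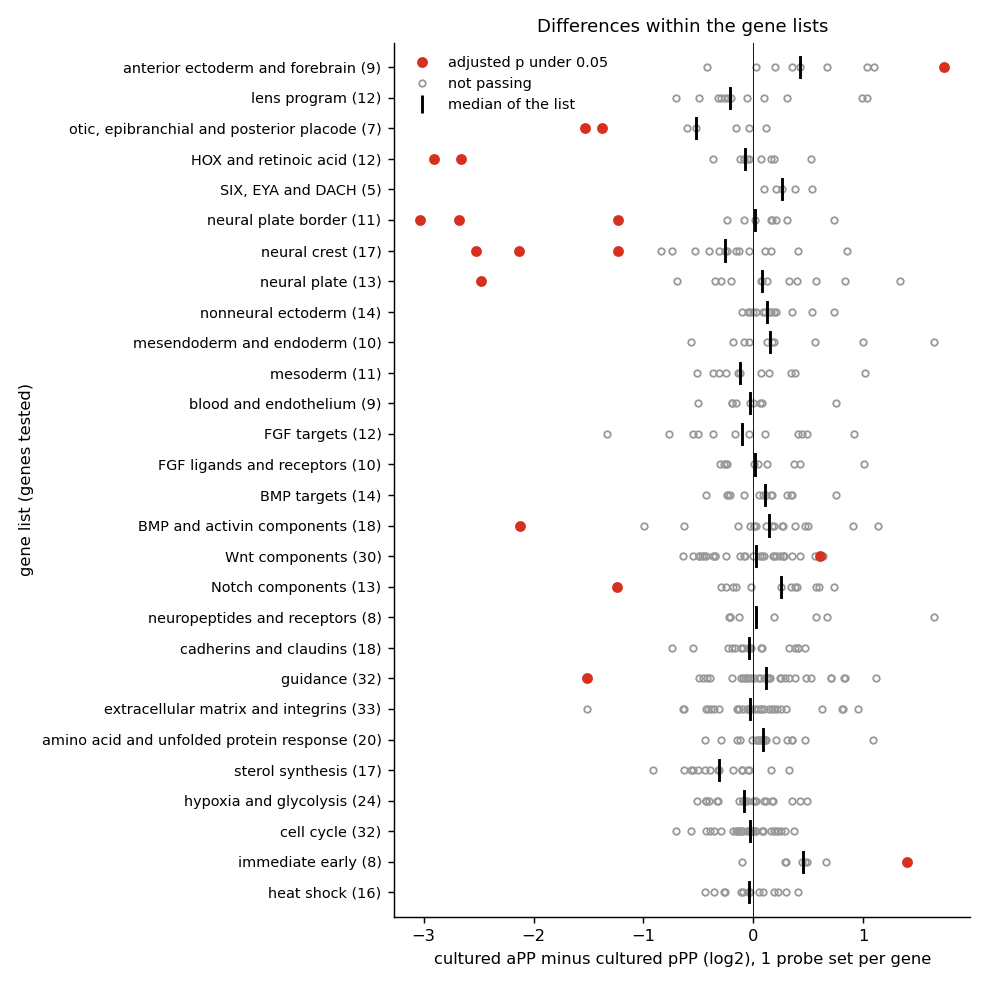
Log2 difference between cultured aPPs and cultured pPPs of each tested gene in 28 gene lists, with 1 probe set per gene, the number tested in brackets and the list median as a bar. Filled red points passed the test, and on the lower side they are the CYP26, ZIC, PAX7, TFAP2B, DRAXIN, ZEB2, GBX2, LMX1B, FST, HES6 and NRP2 genes.

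Lists on growth and metabolism held no gene called by limma. This was so for 32 tested cell cycle genes (median -0.03), 24 of hypoxia and glycolysis (-0.08), 20 of the amino acid and unfolded protein response (0.09), 16 heat shock genes (-0.04), 33 of extracellular matrix and integrins (-0.03) and 18 cadherins and claudins (-0.04), in which 3, 2, 2, 2, 6 and 1 genes had an unadjusted p under 0.05. Of 17 sterol synthesis genes 15 were lower in cultured aPPs, with a median of -0.31, and none passed (4 at an unadjusted p under 0.05). FDPS, an enzyme of isoprenoid synthesis, had the largest of these differences, with 94.6 and 58.4 against 213 and 110.4 (log2 difference -0.91, adjusted p = 0.446). CEBPB, a transcription factor of stress responses, had 661 and 665 against 295 and 311, a log2 difference of 1.09 that did not pass (adjusted p = 0.0948).

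For mesendoderm and mesoderm, the tissues under the ectoderm, summed marker signals were higher on each cultured aPP array than on each cultured pPP array. A few bright genes made up most of these sums in cultured aPPs. The summed signal of 10 tested mesendoderm and endoderm genes was 818 and 553 in cultured aPPs and 422 and 393 in cultured pPPs, and that of 11 mesoderm genes was 2342 and 1967 against 1066 and 1387. No gene of either list was called by limma, with 1 and 2 at an unadjusted p under 0.05, medians of 0.15 and -0.12, and 6 positive of 10 and 5 positive of 11 differences. With arrays scaled to their trimmed means, 1 mesendoderm and endoderm gene was called higher. Defining markers were dim, with SOX17, of endoderm, at 17.5 and 5.94 against 1.71 and 3.07 and no present call on cultured pPP set 1, and TBXT, of early mesoderm, at 14.6 and 18.3 against 30.7 and 29.6. HHEX, of anterior endoderm, had 366 and 188 against 145 and 106 (log2 difference 1.00, adjusted p = 0.604). SST1 had 139.9 and 225 against 44.4 and 47.0. Together HHEX and SST1 held most of the mesendoderm sum in cultured aPPs. Most of the mesoderm sum came from FOXC2, a forkhead gene of head mesoderm, at 1908 and 1708 against 746 and 1037 (log2 difference 1.02, adjusted p = 0.278). The 9 tested blood and endothelium genes summed to 273 and 327 against 442 and 235, with none called and 1 at an unadjusted p under 0.05. The part of these tissues in the regional differences of other genes was not tested.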

How the data were processed

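From each of 10 Affymetrix chicken arrays the authors computed MAS5 signals (unlogged intensity, arbitrary units) and detection calls, and deposited both (software version: not given in the sources used here). RNA was extracted with an Absolutely RNA kit and amplified with NuGEN Ovation reagents. Array medians lay between 6.2 and 21.3, and between 6.2 and 8.4 on the cultured arrays, so signals were quantile normalized over 10 arrays, leaving out 96 array controls, before 16 was added and log2 taken. Of 38439 probe sets, 21591 were called present on 2 or more of the 8 arrays with usable calls and were tested. Of the cultured arrays only cultured aPP set 1 and cultured pPP set 1 had usable calls. A transcript present in a single cultured group and absent from uncultured tissue could therefore not reach 2 calls and was not tested. The share of present calls ranged from 44.7 to 50.2 percent. Precision is limited by how few arrays there are. Of the annotated columns 6 were not used, namely 4 of 2 arrays with the same name and 2 that repeat signals. The 4 were left unassigned because their names do not tell the 2 arrays apart, and a match by signal values was not made. The column of cultured aPP set 1 is marked as a repeated scan. The array's annotation gave 27168 probe sets 1 symbol, 177 several and 11094 none. No genome was used, so that no sequences or coordinates are given.

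All contrasts come from a single fit of the 4 group means (limma 3.58.1, R 4.3.3), with a variance trend on intensity. Adjusted p-values are Benjamini-Hochberg values across the 21591 probe sets. Spread is shared between groups. Lists used the probe set with the highest mean per gene. Genes named are the called genes, genes the paper names, members of each list with the largest differences, the most regional genes before culture and those with a called change of difference. Further list members were named after their values were seen. Members, lists and rules were chosen with earlier results of these data known. For uncultured aPP and pPP arrays of the same set number, departures from the group means correlated at 0.439, 0.182 and 0.226, so the set number as a block was among the alternatives. The labels do not say that arrays of a set were dissected together. Other alternatives were other offsets, scalings, filters, variance models and array sets. Plots were made in Python 3.11.15 (matplotlib 3.10.9).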

Additional observations from a re-analysis of the deposited data

Results flagged for a closer look

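For 3 probe sets the difference between aPPs and pPPs in culture departed from that in uncultured tissue by a test of the change itself (limma, adjusted p under 0.05). FIBIN changed by -3.49 (log2, adjusted p = 0.0195), from 4.08 before culture to 0.59 in it, and the 4 cultured arrays had 640.2, 566, 528 and 294. Gga.16364.1.S1_at, which has no gene symbol, changed by -2.43 (adjusted p = 0.0195), from -0.16 to -2.60. SP8 changed by 2.59 (adjusted p = 0.000514), from -3.01 to -0.42, and it had 120.0 ± 5.36 (SD, n = 3) in uncultured aPPs and 871 and 1121 in cultured aPPs. FIBIN and SP8 were also among the probe sets with the largest differences before culture, and the test uses those arrays again.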

How the results depend on the processing

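Numbers of probe sets higher in cultured aPPs (22) and lower (28) came to 0 and 0 without normalization, 10 and 18 without the detection filter, and 107 and 61 with a replicate block (set number) fitted within the cultured and within the uncultured arrays. The higher count was 41 with an offset of 64, 9 without the intensity trend, 42 with array weights, 47 with only the cultured arrays and 45 with 1 replicate block over all arrays. Without each array in turn the higher count lay between 1 and 105 and the lower between 7 and 33. Regional probe sets called the same way in culture, 5 higher and 19 lower, were 0 and 0 without normalization, 2 and 12 without the filter and 30 and 32 with the block within cultured and uncultured arrays. The 5 became 2 without the trend, 8 with array weights, 11 with 1 block over all arrays and 3 at a fold of 2 or more. Without each array they ranged from 0 to 9 and from 5 to 21. The change of the difference, 3 probe sets, gave 1 with an offset of 4, 10 with 64, 0 without normalization, 1 without the filter, 7 with array weights, 15 and 46 with the 2 blocks, and between 1 and 54 without each array. The cause of these shifts was not tested. All 50 calls kept their direction in every alternative in which they were fitted, and 50 of 50 stayed called with either block. Their cultured groups did not overlap, so leaving out an array could not have turned a direction. Departures of the cultured aPP and pPP arrays of the same set correlated at 0.1, and 2 sets are too few to show that the numbers pair them. Directions turned for other probe sets of ZIC2 (0.07), ZEB2 (0.03), CDH11 (0.33), UPK1B (0.11) and EPAS1 (-0.32), and without each array in turn the differences ranged from -0.21 to 1.35 for LOC417741, -0.40 to 0.35 for UPK1B and -0.15 to 0.37 for EPAS1, none of them called.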

Other observations

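Of the 50 called probe sets, 12 carry no gene symbol in the platform annotation, and 2 of these were called without each cultured array in turn. Gga.13818.1.A1_at had normalized signals of 10.6 and 24.0 in cultured aPPs and 207 and 172 in cultured pPPs with no present call on cultured aPP set 1, and was at least 6.28-fold lower in cultured aPPs (adjusted p = 0.000123 from limma). It had been lower in uncultured aPPs as well, at 12.4 with no present call on sets 2 and 3, against 277 in uncultured pPPs (adjusted p = 2.17e-07). Gga.16364.1.S1_at, at 61.6 and 91.5 against 617 and 466 in culture, had means of 66.9 and 77.3 before it. Among those higher in cultured aPPs, Gga.9002.1.S1_at had 176 and 126 against 30.6 and 25.7 (log2 difference 1.91, adjusted p = 0.00832), where uncultured aPPs and pPPs had 14.7 and 11.5. The change of its difference, 1.75, did not pass a direct test (adjusted p = 0.142 from limma).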
